A study of Drosophila melanogaster with 10 samples.

Results

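The genes described here are 10 genes of the Drosophila cell death machinery: rpr, hid, skl, Diap1, Dronc, Dark, Drice, Dcp-1, p53 and Gadd45. They were chosen by name, as known apoptosis genes and caspases, from the 14292 genes with rows in a transcript abundance table of adult male midguts. Every library came from males carrying Dredd D44, a mutation of the X-linked gene for the IMD pathway caspase, so the controls carried it too. The control group was mex-GAL4/+ (5 libraries), and the other group was mex-GAL4/UAS-PGRP-LE (5 libraries), in which PGRP-LE, a receptor for bacterial peptidoglycan, was overexpressed. mex-GAL4 drives UAS transgenes in the absorptive enterocytes, whereas the RNA came from whole midguts, 20 of them according to the series. Flies ate yeast alone until day 7 after eclosion, and the controls carried the driver without a UAS transgene.

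In flies, Reaper, Hid, Grim and Sickle bind the inhibitor Diap1, which otherwise holds caspases in check and marks them with ubiquitin. When Diap1 is displaced, the initiator caspase Dronc assembles with the adaptor Dark into the apoptosome and cuts the effector caspases Drice and Dcp-1. The transcription factor p53 can switch on rpr and hid after DNA damage, and Gadd45 encodes a stress-induced protein that can activate JNK signalling upstream of MEKK kinases. In the adult midgut, dying enterocytes are replaced from intestinal stem cells and enteroblasts. All values below are messenger RNA levels, and neither caspase activity nor dead cells were measured.

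Several of the 10 genes differed in level between the genotypes, and not in one direction. rpr had the largest rise of the 9 tested genes, its pro-death neighbour hid fell, and the inhibitor Diap1 did not pass the test. Dronc, Dark, p53 and Gadd45 rose by 0.47 to 0.74 on the log2 scale, while the effector caspases Drice and Dcp-1 moved by 0.14 and -0.18. Of the 10 genes, 9 had a level of at least 1 TPM (transcripts scaled to a common total, per length) in at least 5 of the 10 libraries and were tested, and skl lay below that level. Among the 9, 6 were higher with PGRP-LE and 2 were lower in limma's test on log2(TPM + 1), with Benjamini-Hochberg adjustment over all 8722 genes tested and a threshold of 0.05. Over all genes tested, 40.1% were higher and 22.8% lower, so a call by itself says little about a gene in this data set. Under median-of-ratios rescaling 5 of the 9 were higher and 2 lower, and the calls over all genes turned from 3499 higher and 1991 lower to 2753 and 2717. The groups did not overlap for 7 of the 9, as they did for 48.3% of all genes tested. The median change of the 9 was 0.47 on the log2 scale, against 0.09 over all genes tested.

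**Figure D1:**
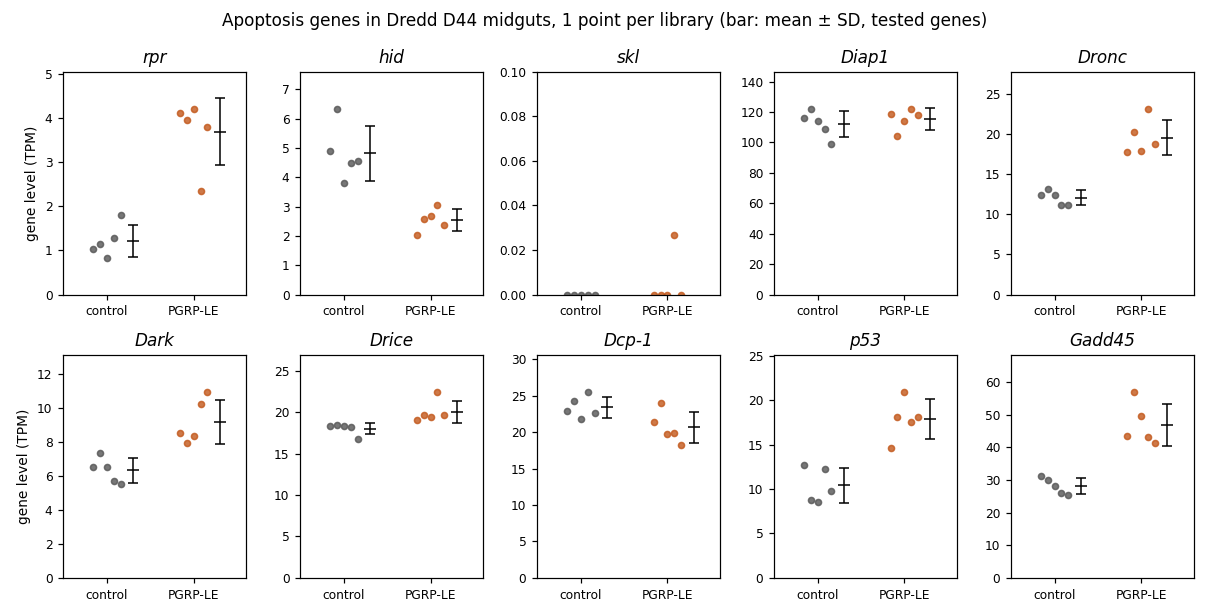
Gene level in TPM (vertical axes, each starting at 0) for the 10 genes in 5 control and 5 PGRP-LE libraries, with 1 point per library and the mean ± SD for the 9 tested genes. The groups are apart for rpr, hid, Dronc, Dark, Drice, p53 and Gadd45, whereas they overlap for Diap1 and Dcp-1, and skl is at 0 in 9 libraries.

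PGRP-LE stood at 35.9 to 41.8 TPM in control libraries and at 4257 to 5030 TPM in the libraries labelled PGRP-LE, and w, a marker gene carried on many transgenes, averaged 3.06 and 17.4 TPM. Dredd, mutated in both groups, still gave 21.9 to 26.5 TPM in controls. The enterocyte genes alphaTry and Amy-p were abundant in every library, with group means from 3335 to 20493 TPM, and all 5 testis and accessory gland markers lay under 1 TPM in every library. Of 7 haemocyte markers, 5 (Hml, NimC1, eater, He and Sr-CI) were also under 1 TPM throughout. TPM values do not hold the read depth, which is unknown for these libraries.

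The antagonists of Diap1 came first in the pathway and moved apart. rpr (FBgn0011706, 3L, 18397535 to 18398435, minus strand, BDGP6.54, as for all coordinates here) encodes Reaper, a protein of 65 residues that binds Diap1. Its level in control replicates 1 to 5 was 1.02, 1.15, 0.829, 1.28 and 1.79 TPM, and in PGRP-LE replicates 1 to 5 it was 4.12, 3.96, 4.20, 2.35 and 3.80 TPM. Every PGRP-LE library was above every control, and PGRP-LE replicate 4 was the lowest of its group. The mean went from 1.21 ± 0.364 to 3.69 ± 0.764 TPM (SD, n = 5), a ratio of 3.03 and a log2 change of 1.08 ± 0.14 (SE; 95% interval 0.77 to 1.38; limma adjusted p = 3.05e-05). Adding 1 TPM before the logarithm understates the change of a gene this low: the log2 change was 1.54 with a pseudocount of 0.1 and 0.48 with 5, and the authors' deposited table gives 1.62.

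hid (FBgn0003997, 3L, 18167745 to 18185641, minus strand) encodes a larger Diap1 antagonist of 410 residues that also acts at mitochondria. Its control libraries held 4.91, 6.33, 3.79, 4.50 and 4.57 TPM, and its PGRP-LE libraries 2.03, 2.59, 2.69, 3.06 and 2.38 TPM. The highest PGRP-LE library was below the lowest control. hid fell from 4.82 ± 0.937 to 2.55 ± 0.379 TPM (SD, n = 5), by 0.71 ± 0.11 on the log2 scale (95% interval -0.95 to -0.46; limma adjusted p = 1.56e-04). With a pseudocount of 5 the change was -0.38, and in the authors' deposited table it is -0.98. Nearly all of the hid level, 97.4%, was assigned to the transcript hid-RA, which fell by 0.74 ± 0.12 (limma adjusted p = 5.85e-04 over all 15162 transcripts tested).

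The order of rpr and hid within a library turned. The ratio of rpr to hid, computed after their values were seen, was 0.181 to 0.392 in the 5 controls and 2.03, 1.53, 1.56, 0.767 and 1.59 in PGRP-LE replicates 1 to 5. hid was thus the more abundant of the pair in every control, and rpr in 4 of 5 PGRP-LE libraries, the exception being replicate 4.

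skl (FBgn0036786, 3L, 18438561 to 18439942, minus strand) encodes Sickle, a further protein of this family. It was listed at 0 in all 5 controls and in 4 PGRP-LE libraries, and at 0.0266 TPM in PGRP-LE replicate 4. An exact permutation test of 5 against 5 (two-sided) gave p = 1. With only 1 library above 0, every division of the libraries gives a difference of the same size, so no other p was possible. No fold is given against a group at 0.

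hid, grim, rpr and skl lie in that order on the same strand of 3L within 272 kb, a cluster long known in fly apoptosis. grim, the remaining antagonist of the cluster, was below the level for testing, at 0 in 4 controls and 0.0195 TPM in the other, and at 0.0207, 0.104, 0.0659, 0.105 and 0.0912 TPM in the PGRP-LE libraries. Neighbours 117.1, 93.1 and 40.1 kb apart were thus at very different levels, with hid and rpr the only genes of the cluster that were tested. The 4 other protein-coding genes between hid and skl (CG7320, CheA75a, CG5103 and CG13700) were also below the level for testing. The cluster was looked at after the values of its genes were seen.

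**Figure D2:**
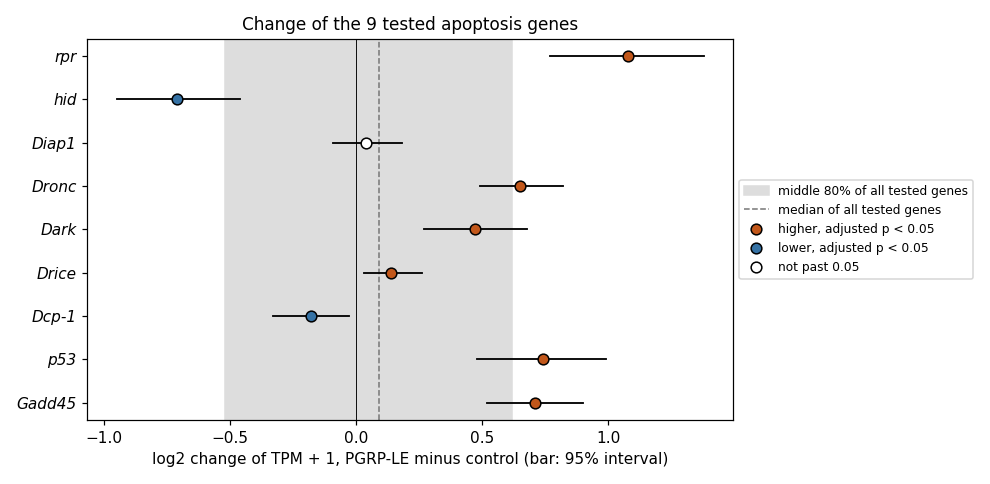
Log2 change of TPM + 1, PGRP-LE minus control (horizontal axis), for the 9 tested genes, as points with 95% intervals from limma, over a grey band for the middle 80% of all tested genes (-0.52 to 0.62). rpr lies to the right of the band and hid to its left, Dronc, p53 and Gadd45 lie just past its right edge, and Dark, Drice, Dcp-1 and Diap1 lie within it.

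Diap1 (FBgn0260635, 3L, 16038410 to 16051034, minus strand) encodes the main inhibitor of apoptosis of flies, a ubiquitin ligase. It was the most abundant of the 10 genes in both groups. Control libraries held 116, 122, 114, 109 and 99.3 TPM, and PGRP-LE libraries held 119, 104, 114, 122 and 118 TPM. The groups overlapped almost completely, at 112 ± 8.32 and 115 ± 7.18 TPM (SD, n = 5). The log2 change was 0.04 ± 0.06 (limma adjusted p = 0.559), with a 95% interval from -0.09 to 0.18, and its sign turned under median-of-ratios rescaling (-0.06) and quantile normalization (-0.05). That p does not show that the level is the same in both groups.

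Below the gene total, the Diap1 transcripts did differ. The annotation holds 6 transcripts with the same coding exons, for 438 residues, that start at different places, and kallisto divides the reads they share among them, so their levels are estimates. Over all transcripts tested, 28.0% were higher and 18.2% lower. Of the 20 transcript rows of the 10 genes, 15 were tested, of which 7 were higher and 2 lower, or 6 and 4 under median-of-ratios rescaling. Diap1-RA, which starts 4188 bases downstream of the first start, held 57.6, 62.3, 52.8, 59.9 and 46.7 TPM in controls and 46.3, 40.1, 43.9, 47.1 and 43.1 TPM with PGRP-LE. The PGRP-LE libraries were the lower ones, with an overlap at control replicate 5. Diap1-RA fell from 55.9 ± 6.23 to 44.1 ± 2.78 TPM (SD, n = 5), by 0.33 ± 0.08 on the log2 scale (limma adjusted p = 0.00616). Its share of the gene went from 49.8% ± 3.40 to 38.3% ± 1.00, and the shares did not overlap between groups.

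Diap1-RB, which starts 363 bases downstream of the first start, was called higher, from 44.3 ± 3.91 to 52.4 ± 3.35 TPM (SD, n = 5; log2 change 0.24 ± 0.07; limma adjusted p = 0.0155). That call was lost under median-of-ratios rescaling (adjusted p = 0.115), quantile normalization (0.0844) and rescaling to the spike-ins (0.135), all by limma. Diap1-RD has the start nearest to the coding region, 10499 bases downstream of the first, and was named after its values were seen, since it held 7.39% of the gene. It stood at 5.18, 5.86, 3.03, 3.78 and 4.43 TPM in controls and at 9.60, 9.19, 12.0, 16.1 and 14.8 TPM with PGRP-LE. Every PGRP-LE library was above every control. Diap1-RD rose 2.77-fold, from 4.46 ± 1.12 to 12.3 ± 3.07 TPM (SD, n = 5), a log2 change of 1.28 ± 0.18 (limma adjusted p = 1.87e-04), and its share of the gene went from 3.98% ± 0.897 to 10.6% ± 2.23. The minor transcripts Diap1-RF, Diap1-RC and Diap1-RE, also named after their values were seen, had log2 changes of -0.53, -0.06 and 0.17 that did not pass (limma adjusted p = 0.0633, 0.807 and 0.212).

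**Figure D3:**
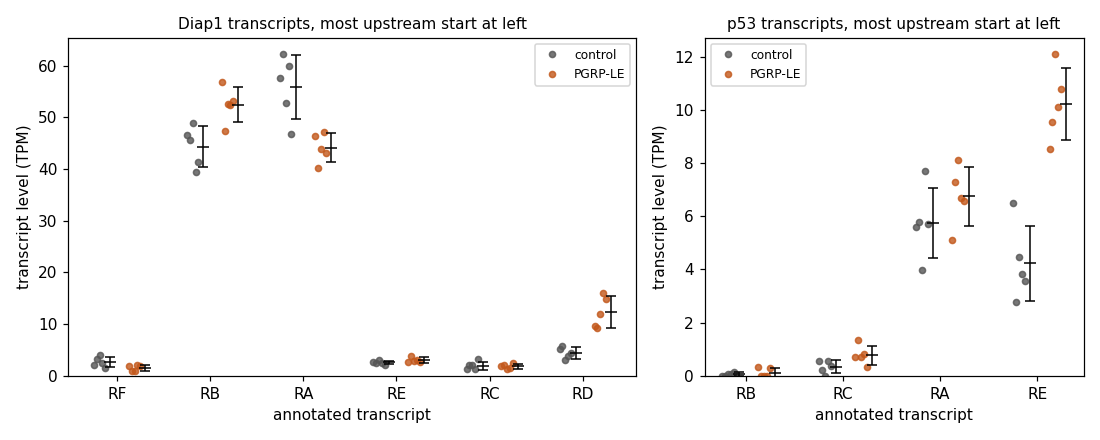
Level in TPM of each annotated transcript of Diap1 (left) and p53 (right) in 5 control and 5 PGRP-LE libraries, ordered by start site, with 1 point per library and the mean ± SD. Diap1-RA is lower and Diap1-RD higher with PGRP-LE, and of the p53 transcripts p53-RE is apart between groups, at 2.77 to 6.51 TPM in controls and 8.53 to 12.1 TPM with PGRP-LE.

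Both parts of the apoptosome rose. Dronc (FBgn0026404, 3L, 9968479 to 9971002, plus strand), the initiator caspase, held 12.4, 13.2, 12.4, 11.1 and 11.1 TPM in controls. In PGRP-LE libraries it held 17.8, 20.2, 17.9, 23.1 and 18.7 TPM, all above the highest control, with replicate 4 highest. The mean went from 12.0 ± 0.913 to 19.5 ± 2.22 TPM (SD, n = 5), a log2 change of 0.65 ± 0.08 (95% interval 0.49 to 0.82; limma adjusted p = 1.35e-05).

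Dark (FBgn0263864, 2R, 17020027 to 17026703, plus strand) is the fly relative of Apaf-1, the scaffold of the apoptosome in mammals. Its control libraries held 6.51, 7.33, 6.52, 5.70 and 5.52 TPM and its PGRP-LE libraries 8.51, 7.94, 8.32, 10.2 and 10.9 TPM. The groups did not overlap, and the nearest libraries were control replicate 2 and PGRP-LE replicate 2. Dark rose from 6.32 ± 0.725 to 9.18 ± 1.31 TPM (SD, n = 5), by 0.47 ± 0.09 on the log2 scale (95% interval 0.27 to 0.68; limma adjusted p = 9.34e-04). The transcript Dark-RB, for the form of 1440 residues, held 97.4% of the gene and rose by 0.48 ± 0.11 (limma adjusted p = 0.00559).

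The ratio of Dronc to its inhibitor Diap1 within a library was 0.101 to 0.112 in controls and 0.149 to 0.195 with PGRP-LE. The ratio of Dronc to Dark was 1.91 ± 0.0764 and 2.15 ± 0.304 (SD, n = 5), and its groups overlapped. These ratios were also computed after the values were seen, and they are ratios of messenger RNA, not of protein.

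The effector caspases changed little, and their calls were fragile. Drice (FBgn0019972, 3R, 29799658 to 29801584, plus strand), which carries out most apoptotic cleavage, held 18.3, 18.4, 18.3, 18.2 and 16.8 TPM in controls and 19.0, 19.6, 19.4, 22.4 and 19.6 TPM with PGRP-LE. The groups did not overlap, with control replicate 5 lowest and PGRP-LE replicate 4 highest. Drice went from 18.0 ± 0.677 to 20.0 ± 1.35 TPM (SD, n = 5), a log2 change of 0.14 ± 0.05 (95% interval 0.03 to 0.26; limma adjusted p = 0.0318), which is 0.05 above the median of all genes. The call was lost under median-of-ratios rescaling (0.04; adjusted p = 0.525), quantile normalization (0.09; 0.144) and rescaling to the spike-ins (0.12; 0.272), and without control replicate 5 (adjusted p = 0.074) or PGRP-LE replicate 4 (0.0686), or replicate 2 of both groups (0.0606), all by limma. The authors' deposited table gives a log2 fold change of 0.12 with p = 0.244.

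Dcp-1 (FBgn0010501, 2R, 23551313 to 23553547, plus strand) is the other effector caspase among the 10 genes and also takes part in autophagy in the fly ovary. It held 22.9, 24.3, 21.8, 25.5 and 22.7 TPM in controls and 21.4, 24.0, 19.7, 19.9 and 18.3 TPM with PGRP-LE. PGRP-LE replicate 2 lay within the control range and the other PGRP-LE libraries below it. The mean went from 23.4 ± 1.47 to 20.6 ± 2.16 TPM (SD, n = 5), a log2 change of -0.18 ± 0.07 (95% interval -0.33 to -0.03; limma adjusted p = 0.0418). The call was lost under rescaling to the spike-ins (limma adjusted p = 0.116), and without any 1 of control replicates 1, 2, 4 and 5 or PGRP-LE replicates 3, 4 and 5 (limma adjusted p from 0.0524 to 0.0998). It was also lost without a filter (0.0596) and with array weights (0.0706), both by limma. Median-of-ratios rescaling and quantile normalization kept it, with log2 changes of -0.28 (limma adjusted p = 0.00522) and -0.23 (0.0188). The authors' deposited table gives -0.20 with p = 0.102. Dcp-1 lies wholly within pita on the opposite strand. pita, named after its values were seen, stood at 9.54 ± 0.383 and 9.73 ± 0.529 TPM (limma adjusted p = 0.695), and whether reads were quantified by strand is not stated in the labels or files used here. The ratio of Drice to Dcp-1 within a library was 0.770 ± 0.0492 and 0.977 ± 0.127 (SD, n = 5), with groups that overlapped.

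p53 and Gadd45 rose by about as much as Dronc. p53 (FBgn0039044, 3R, 23049657 to 23054082, minus strand) held 12.7, 8.78, 8.52, 12.2 and 9.80 TPM in controls and 14.6, 18.1, 20.9, 17.6 and 18.1 TPM with PGRP-LE. Controls were spread but all lay below the lowest PGRP-LE library. The mean went from 10.4 ± 1.93 to 17.9 ± 2.22 TPM (SD, n = 5), a log2 change of 0.74 ± 0.12 (95% interval 0.48 to 0.99; limma adjusted p = 1.84e-04).

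Of the main p53 transcripts, p53-RE passed the test and p53-RA did not. p53-RE, a short transcript of 5 exons for 334 residues that starts 2852 bases downstream of the first start, held 6.51, 2.77, 4.48, 3.82 and 3.56 TPM in controls. With PGRP-LE it held 8.53, 9.53, 12.1, 10.1 and 10.8 TPM, above every control. It rose from 4.23 ± 1.42 to 10.2 ± 1.33 TPM (SD, n = 5), a log2 change of 1.13 ± 0.17 (limma adjusted p = 2.44e-04), or 0.73 with a pseudocount of 5. p53-RA, for the form of 385 residues, stood at 5.75 ± 1.32 and 6.75 ± 1.11 TPM (SD, n = 5; log2 change 0.21 ± 0.15; limma adjusted p = 0.276). That change ran from 0.10, without control replicate 3, to 0.30, without control replicate 4, and whether the 2 transcripts changed differently was not tested. The share of p53-RA in the gene was 55.7% ± 9.78 in controls and 37.6% ± 2.10 with PGRP-LE, without overlap. That of p53-RE was 40.6% ± 10.5 and 57.1% ± 2.76, with groups that overlapped at 52.6%. The p53-RB and p53-RC rows were below the level for testing. The gustatory receptor gene Gr94a lies on the opposite strand inside p53, upstream of the p53-RE start, was named after its values were seen, and went from 1.01 ± 0.336 to 1.88 ± 0.439 TPM (limma adjusted p = 0.0046). Its controls ran from 0.684 to 1.54 TPM, and its PGRP-LE libraries from 1.21 to 2.38 TPM. Gr94a thus reached the level for testing largely through the PGRP-LE libraries.

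Gadd45 (FBgn0033153, 2R, 7249161 to 7250655, plus strand) held 31.2, 30.0, 28.2, 26.0 and 25.4 TPM in controls and 43.5, 56.9, 49.5, 43.2 and 41.2 TPM with PGRP-LE. Every PGRP-LE library was above every control, with replicate 2 highest. It rose from 28.2 ± 2.48 to 46.9 ± 6.42 TPM (SD, n = 5), by 0.71 ± 0.09 on the log2 scale (95% interval 0.52 to 0.90; limma adjusted p = 2.49e-05).

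By level per transcript length, the 10 genes fell in the order Diap1, Gadd45, Dcp-1, Drice, Dronc, p53, Dark, hid, rpr and skl in controls. Neighbours in that order overlapped between libraries for Gadd45 and Dcp-1, Dronc and p53, and Dark and hid. With PGRP-LE, Dcp-1, Drice, Dronc and p53 formed a run in which each overlapped the next, and rpr came above hid with overlapping ranges.

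Decay and Damm, caspases outside the 10 genes, were far more abundant than those within. Drosophila has 7 caspase genes, whose summed level was 553 to 679 TPM in controls and 969.6 to 1196 TPM with PGRP-LE. Decay, an effector-like caspase, held 340.4 ± 17.9 TPM in controls and 562 ± 21.0 TPM with PGRP-LE (SD, n = 5; log2 change 0.72 ± 0.05; limma adjusted p = 1.46e-07). Damm, a caspase whose role is less well known, rose from 171 ± 32.5 to 387 ± 80.6 TPM (log2 change 1.16 ± 0.16; limma adjusted p = 1.12e-04). Together they made up most of the caspase sum, with Decay at 55.4% ± 2.22 in controls and Damm at 27.7% ± 2.89 and 36.1% ± 4.39 (SD, n = 5). Dredd rose from 23.2 ± 2.01 to 33.0 ± 2.15 TPM (limma adjusted p = 3.43e-05), and Strica, named after its values were seen, fell from 26.9 ± 2.21 to 22.7 ± 1.72 TPM (limma adjusted p = 0.00852). Dronc, Drice and Dcp-1 each held under 5% of the sum. In controls Strica, Dcp-1 and Dredd overlapped their neighbours in level, and with PGRP-LE Strica, Dcp-1, Drice and Dronc did.

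**Figure D4:**
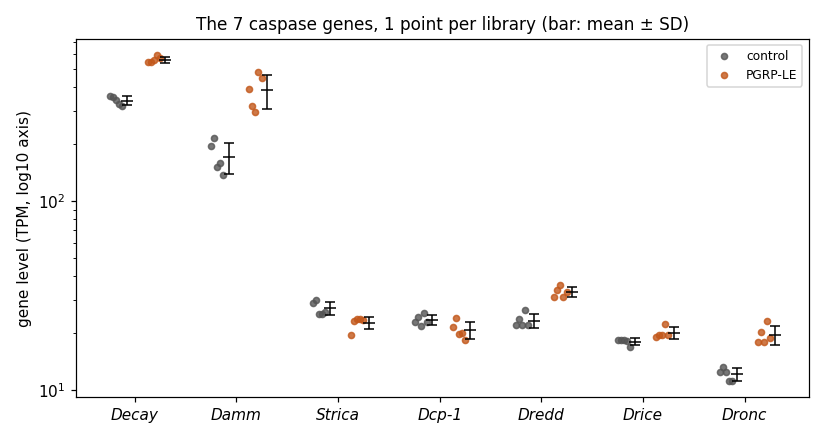
Level in TPM (log10 axis) of the 7 caspase genes in 5 control and 5 PGRP-LE libraries, with 1 point per library and the mean ± SD, ordered by control mean. Decay and Damm lie above 100 TPM in every library, and Dronc is the lowest in controls at 11.1 to 13.2 TPM.

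The other genes of the pathway, 66 in 9 lists, moved in both directions. Of 61 tested, 36 rose and 12 fell (median log2 change 0.27), against 40.1% and 22.8% of all genes. The 36 include Drep2 and Corp, which reached the level for testing through the PGRP-LE libraries. Their rises are no independent count, here or in their own lists. The counts of single lists below stand against the same shares, and a list of so few genes says little by its count. Under median-of-ratios rescaling the counts were 30 and 14. Of the antagonists, Prx4, the peroxiredoxin that can free caspases from Diap1 after release from the endoplasmic reticulum, rose from 31.8 ± 2.28 to 41.9 ± 2.84 TPM (SD, n = 5; limma adjusted p = 1.56e-04). HtrA2, a mitochondrial protease that cuts Diap1, stood at 4.70 ± 0.884 and 5.56 ± 0.369 TPM (limma adjusted p = 0.0841). Among the other proteins of the inhibitor family, Det, the fly survivin, rose from 6.31 ± 1.28 to 11.4 ± 1.38 TPM (limma adjusted p = 1.04e-04). Survivin also serves in cell division. Bruce, a giant ubiquitin-conjugating inhibitor, fell from 20.5 ± 1.06 to 15.5 ± 0.945 TPM (limma adjusted p = 5.40e-05). Diap2, which acts in the IMD pathway, stood at 30.7 ± 1.25 and 32.5 ± 2.97 TPM (limma adjusted p = 0.322), and the sign of its log2 change turned from 0.07 to -0.03 under median-of-ratios rescaling.

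All 4 genes of inhibitor turnover and ubiquitin conjugation rose, although 3 of 4 did with median-of-ratios rescaling. They included the ubiquitin-conjugating enzyme eff, from 217 ± 6.75 to 330.5 ± 6.04 TPM, the ubiquitin-activating enzyme Uba1, by 0.40, and IKKepsilon, a kinase that marks Diap1 for degradation, by 0.36 on the log2 scale. In the Bcl-2 and mitochondrial list 6 of 9 rose and 3 fell. Buffy, a Bcl-2 family member that protects cells, fell from 49.0 ± 2.76 to 30.1 ± 3.56 TPM (SD, n = 5; log2 change -0.69 ± 0.07; limma adjusted p = 5.81e-06). Its pro-death relative Debcl, named after its values were seen, fell by 0.27, while Cyt-c-p, a cytochrome c, and Drp1, a mitochondrial fission factor, had log2 rises of 0.55 and 0.42.

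Of 4 tested genes of caspase-activated DNA fragmentation, 2 rose. Drep1, which inhibits the caspase-activated nuclease, rose from 3.14 ± 0.218 to 5.07 ± 0.453 TPM, and its relative Drep2 from 0.831 ± 0.0936 to 2.69 ± 0.123 TPM (SD, n = 5), while DNaseII had a log2 change of -0.21 (limma adjusted p = 0.529), which ran from -0.36 to -0.04 when single libraries were left out. Drep4, the nuclease, named after its values were seen, had a log2 change of 0.03 (limma adjusted p = 0.724). Drep2 was under 1 TPM on average in controls, so it reached the level for testing through the PGRP-LE libraries.

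In the p53 and DNA damage list 7 of 13 tested genes rose and 2 fell, against 40.1% and 22.8% of all genes. Corp, a p53 target that restrains p53, rose from 1.00 ± 0.300 to 3.08 ± 0.846 TPM (SD, n = 5; limma adjusted p = 8.24e-05), and with 4 of 5 controls under 1 TPM it reached the level for testing through the PGRP-LE libraries. Irbp18, a partner of the stress factor Xrp1, rose from 21.0 ± 1.71 to 36.1 ± 3.61 TPM (limma adjusted p = 4.98e-06), and the deacetylase Sirt1 fell by 0.37 on the log2 scale. The damage kinase lok, which acts upstream of p53, had a log2 change of -0.10 (limma adjusted p = 0.152). Another kinase of the damage response, tefu, rose by 0.30, and both were named after their values were seen. In the death ligand and JNK list 5 of 10 rose and 2 fell, but 2 and 3 under median-of-ratios rescaling, and spike-in rescaling left 3 that rose. There the kinases hep and bsk had log2 rises of 0.50 and 0.35, and Tak1 was called higher at 0.21, a call lost under median-of-ratios and spike-in rescaling (limma adjusted p = 0.0818 and 0.111).

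Of 12 tested engulfment genes, 7 rose and 3 fell, and median-of-ratios rescaling gave 5 and 3. crq, a receptor for dead cells that haemocytes use, fell from 98.3 ± 5.43 to 66.6 ± 1.47 TPM (SD, n = 5; limma adjusted p = 8.40e-07), and mbc, a regulator of Rac, fell by 0.50 on the log2 scale. Src42A, a kinase that acts in engulfment, rose by 0.38 on the log2 scale.

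**Figure D5:**
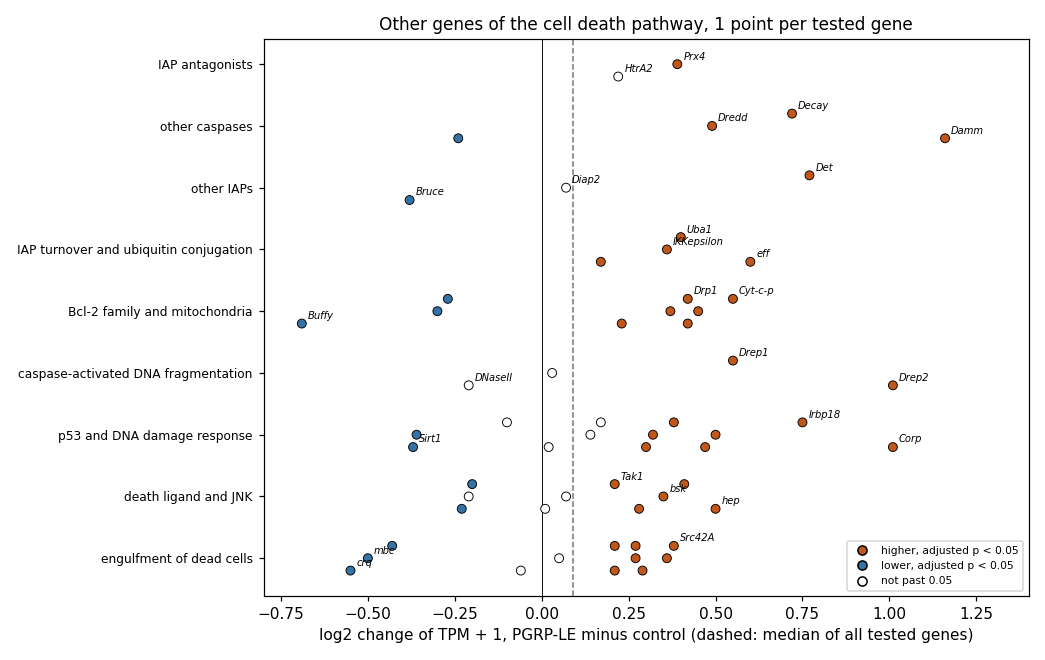
Log2 change of TPM + 1, PGRP-LE minus control (horizontal axis), for the 61 tested genes of 9 other cell death lists, with 1 point per gene coloured by limma's call and the dashed line at the median of all tested genes. Points lie on both sides of 0 in most lists, from Buffy at -0.69 to Damm at 1.16, and all 4 points of the ubiquitin conjugation list lie to the right of 0.

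Markers of cell types moved alongside these genes. Their counts, too, stand against 40.1% higher and 22.8% lower over all genes tested. Of 10 progenitor markers, 9 rose, and the summed level of the 10 was 40.7 to 53.3 TPM in controls and 118 to 151 TPM with PGRP-LE. The remaining marker, heca, named after its values were seen, ran from 3.54 to 5.33 TPM in controls and from 2.98 to 3.51 TPM with PGRP-LE. Its log2 change of -0.21 did not pass (limma adjusted p = 0.057). Under median-of-ratios rescaling and under quantile normalization, 1 progenitor marker was called lower. esg, a progenitor transcription factor, went from 8.40 ± 0.653 to 21.7 ± 1.39 TPM, and shg, the fly E-cadherin, from 11.7 ± 0.600 to 17.3 ± 1.47 TPM (SD, n = 5). All 13 tested cell cycle genes of 16 rose, RnrS and PCNA among them, with a sum of 23.6 to 32.7 TPM in controls and 95.3 to 115 TPM with PGRP-LE. Of these 13, aurB, polo, CycA, Mcm5 and BubR1 were under 1 TPM in every control and Cdk1 and Mcm2 in 4 of 5, so these 7 reached the level for testing through the PGRP-LE libraries and their rises are no independent count. Of 10 enterocyte genes, 6 rose and 4 fell, while their sum, mostly trypsin and amylase, was 29174 to 34230 TPM in controls and 24566 to 26106 TPM with PGRP-LE. Summed visceral muscle markers overlapped, at 2516 to 3108 and 2563 to 3170 TPM, as did summed enteroendocrine markers, at 696 to 796 and 719 to 799.6 TPM. Of the 9 muscle markers 3 fell and 0 rose, and of the 10 enteroendocrine markers 2 rose and 1 fell. Of 7 haemocyte markers 1 rose and 1 fell, with sums of 10.4 to 13.4 and 9.55 to 11.9 TPM. Sums of the 3 Malpighian tubule markers, of which 2 fell, ran from 27.4 to 144 TPM and from 5.84 to 50.4 TPM. Summed levels of 4 neuronal markers (1 rose, under 1 TPM in every control, and 1 fell) were 5.95 to 7.17 and 4.39 to 5.64 TPM, and those of 2 tracheal markers (1 fell) 3.34 to 4.36 and 2.72 to 3.32 TPM. Of 8 fat body markers 1 rose and 4 were under 1 TPM throughout, with sums of 10.6 to 21.1 and 4.34 to 18.2 TPM. The fat body marker that rose ran from 0.548 to 1.93 TPM in controls and from 0.953 to 3.88 TPM with PGRP-LE. It too reached the level for testing largely through the PGRP-LE libraries. In whole midguts, more cells of a type and more RNA per cell cannot be told apart. The part of these cell types in the changes of rpr, hid, Dronc, Dark, p53 and Gadd45 was not tested.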

How the data were processed

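Polyadenylated RNA of 10 midgut libraries, 5 per genotype, was sequenced from stranded libraries, per the labels' protocols. The authors deposited TPM per transcript (31181 rows, 92 of them ERCC spike-ins), made with kallisto on build BDGP6 after FastQC and Trim Galore, per the submitters' processing notes, which also list edgeR and give no versions. A second deposited table holds the authors' log2 fold change and p-value per gene. Its title names RUVSeq, a correction for unwanted variation, and the sources used here do not say whether the authors' p-value is adjusted. The slope of the authors' deposited fold changes on log2 TPM ratios was 1.08 over 6780 genes.

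Of 31089 transcript rows, 31048 matched Ensembl release 115 (BDGP6.54) and were summed per gene. The 8722 genes that reached 1 TPM in 5 or more of the 10 libraries were compared as log2(TPM + 1) with limma 3.58.1 under R 4.3.3, using eBayes with its trend and robust options, two-sided, with Benjamini-Hochberg adjustment over all tested genes and a threshold of 0.05. Transcripts were tested the same way. The gene below the filter was compared by an exact permutation test in SciPy 1.17.1. The limma fit was tested on data simulated from the gene levels, and not on simulated transcripts. Without counts, no counting interval can be given and depth does not enter the test. The labels call the libraries biological replicates.

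The 10 genes and all lists were chosen with earlier results of these data known. Named besides the 10 were the 3 tested genes of each pathway list with the smallest p, the 2 most abundant genes of each marker list, PGRP-LE, Dredd, w, and transcripts with at least 10% of a gene's TPM. Others are marked as named after their values were seen, except those named only because they lay under 1 TPM in some or all libraries. Alternatives, 22 in all, changed the pseudocount, filter, scaling, variance model, replicate block, threshold and libraries, and omission of replicate 2 from both groups was chosen after seeing the data. Library columns left unused numbered 0.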

Additional observations from a re-analysis of the deposited data

Results flagged for a closer look

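Each group of 5 libraries was checked for a library far from the other 4, for the named genes, label checks and transcripts. Of 134 groups, 13 held such a library, where chance gives about 1 in 20, and no cause was tested. That rate does not hold for groups with only 1 library above 0, as for skl and SP, which are flagged whatever the value. Among the 10 genes, rpr was low in 1 PGRP-LE library at 2.35 TPM (next 3.80 TPM), and skl was at 0.0266 TPM in 1 PGRP-LE library and at 0 in the others. Drice was low in 1 control at 16.8 TPM (next 18.2 TPM) and high in 1 PGRP-LE library at 22.4 TPM (next 19.6 TPM). The low rpr value, the skl value and the high Drice value all belong to PGRP-LE replicate 4.

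Among the other cell death genes, 1 library stood apart for each of the following. In the PGRP-LE group, Bruce was high at 17.2 TPM (next 15.3), Buffy was high at 36.3 TPM (next 29.1) and Irbp18 was low at 29.9 TPM (next 36.2). In the controls, eff was high at 229 TPM (next 216) and bsk was high at 43.8 TPM (next 37.5). Among markers of other cells, Orcokinin was low in 1 control at 189 TPM (next 206) and fon high in 1 control at 7.59 TPM (next 4.03). SP was at 0.397 TPM in 1 control and at 0.431 TPM in 1 PGRP-LE library, and at 0 in the others of each group.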

How the results depend on the processing

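rpr, hid, Dronc, Dark, p53 and Gadd45 kept their direction and stayed past the threshold under every alternative in which they were tested, at limma adjusted p no higher than 0.00822. rpr and hid were not tested with a mean of at least 5 TPM. Drice and Dcp-1 each lost their call under several. Of the 10 genes, those called lower numbered 1 in place of 2 without a filter, with a mean of at least 5 TPM, under spike-in rescaling, with array weights and at a threshold of 0.01, and ran from 1 to 2 when single libraries were left out. Those called higher ran from 5 to 6 there. Their transcripts called lower numbered 1 with a mean of at least 5 TPM and 4 under median-of-ratios rescaling, against 2. The sign of Diap1 turned to -0.06 (median-of-ratios) and -0.05 (quantile), and that of Diap2 to -0.03 and -0.00. With single libraries left out, the other cell death genes gave 33 to 36 higher and 10 to 12 lower, and skl differed by 0 to 0.00665 TPM. Of 940 values for 43 named genes and transcripts under the 22 alternatives, 910 kept their direction and side of the threshold, 25 lost the threshold, 1 gained it (HtrA2) and 4 turned sign. Except where a rescaling or fewer libraries made the difference, the cause was not tested.

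Replicate numbers are shared between groups, but same-numbered libraries did not deviate together in every pair (correlations -0.173, 0.57, -0.233, 0.065 and -0.056), so the numbers were not taken as pairs. With the replicate block, 5 of the 10 genes were higher and 2 lower, as were 34 and 11 of the other cell death genes, 7 and 2 of the transcripts, and 3173 and 1803 of all genes, and Drice was the gene of the 10 that lost its call (limma adjusted p = 0.0716). Without replicate 2 in both groups, chosen after seeing the data, 5 of the 10 genes were higher and 2 lower, Drice again not among them (limma adjusted p = 0.0606).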
